A study of Arabidopsis thaliana with 6 samples.

Results

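The genes described here are 10 genes of flavonoid and anthocyanin synthesis in Arabidopsis thaliana, taken by their gene identifiers from the 33602 genes in the deposited tables. They comprise 4 early steps of the pathway (CHS, CHI, F3H and F3'H), 1 flavonol branch step (FLS1), 2 late steps that lead to anthocyanin (DFR and LDOX) and 3 regulators (PAP1, PAP2 and TT8). RNA was sequenced from 3 libraries of wild-type (WT) seedlings, replicates 2, 4 and 5, and from 3 of a double mutant, acinus-2 pinin-1, which the labels call acinus-2 pnn, replicates 6, 7 and 12. All seedlings were of the Col-0 ecotype, were given in the labels as 12 days old and had grown in continuous light. The methods of the study give an older age, so that the age at harvest is uncertain. In the double mutant, AtACINUS and AtPININ, subunits of related complexes that bind RNA and act in splicing, each carry a T-DNA insertion. It represents 1 combination of alleles in whole seedlings, and no single mutant was sequenced. The study calls the libraries of a genotype biological replicates, and the sources used here do not say whether they were grown separately. In whole seedlings, fewer cells of a type and less RNA per cell cannot be told apart.

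Flavonoids are made from p-coumaroyl-CoA, a product of the general phenylpropanoid pathway. Chalcone synthase and the other early enzymes make dihydroflavonols, from which flavonol synthase makes flavonols, which absorb ultraviolet light, while the late enzymes make the red and purple anthocyanins. In Arabidopsis seedlings the early genes are driven by a group of R2R3-MYB factors, and the late genes by complexes of an R2R3-MYB such as PAP1 or PAP2, a bHLH factor such as TT8, GL3 or EGL3, and the WD40 protein TTG1.

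In the mutant both late genes and 2 of the 3 regulators rose, and no early gene changed past the thresholds. DFR was 3.28 times and LDOX 3.54 times as high as in WT, TT8 was 3.16 times and PAP1 2.22 times as high. The calls required an adjusted p under 0.02 in edgeR's quasi-likelihood test and a fold change above 2. By this rule 4 of the 10 members were higher and 0 were lower, where 4.29% of the 20962 tested genes were higher and 4.88% were lower.

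The libraries held between 18890178 and 27622690 reads on genes, of which the 10 members took between 0.0387% and 0.0490%. The exons of AtACINUS that lie lowest on the chromosome, numbered 1 to 3, held between 853 and 1300 reads in WT and 0 or 1 read in each mutant library. Exons 4 and later of AtPININ held between 704 and 964 reads in WT and between 344 and 435 in the mutant, while its exons 1 to 3 were higher in the mutant, with between 1826 and 2340 reads against between 729 and 905. Green leaf markers, RBCS1A, CAB1 and CA1, were present in every library and summed to between 17717 and 18107 normalised counts scaled to library size (CPM) in WT and between 13496 and 13970 in the mutant. Root markers summed to between 56.8 and 60.7 CPM in WT and between 45.1 and 50.03 in the mutant, and the shoot apex markers STM and KNAT1 to between 16.5 and 18.1 CPM in WT and between 28.0 and 30.1 in the mutant. The sums hide unequal shifts. The leaf gene CA1 (log2 fold change -1.01) and the root hair genes COBL9 (-1.14) and EXPA7 (-1.002) were called lower, while SCR (-0.21) and SHR (0.04), which make up most of the root sum, were not called. STM (1.26) was called higher. The part of these shifts in the results on the members was not tested. Dry seed markers held between 1 and 7.06 reads in 5 libraries and 338 reads in mutant replicate 12, so each call is also given without that library.

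None of the 4 early genes and FLS1 passed both thresholds, and their levels ranged from that of CHS, the highest of the members, to that of F3'H, which lay below both late genes. CHS (AT5G13930, chromosome 5, 4488476 to 4490264), chalcone synthase, which commits p-coumaroyl-CoA to flavonoids, was at 131.5, 165.4 and 138.2 RPKM, which divides reads by exon length and by all mapped reads, in the WT replicates 2, 4 and 5. In the mutant replicates 6, 7 and 12 it was at 135.2, 113.2 and 140.8 RPKM. The groups overlapped, and the log2 fold change of mutant over WT was -0.17 (SE 0.07, adjusted p = 0.085, edgeR).

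CHI (AT3G55120, chromosome 3, 20430059 to 20431597), chalcone isomerase, closes the third ring of the flavonoid skeleton. It was at 26.2, 26.0 and 22.4 RPKM in WT and at 28.5, 27.9 and 30.5 RPKM in the mutant. No mutant library was as low as the highest WT library, but the log2 fold change was 0.22 (SE 0.07, adjusted p = 0.017, edgeR), under the fold threshold. F3'H (AT5G07990, chromosome 5, 2560328 to 2563137), flavonoid 3'-hydroxylase, adds a hydroxyl group to the B ring. Its level was 5.97, 6.32 and 6.002 RPKM in WT and 7.08, 7.32 and 8.91 RPKM in the mutant, again without overlap. The log2 fold change of F3'H was 0.34 (SE 0.08, adjusted p = 0.0039, edgeR), under the fold threshold as well.

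FLS1 (AT5G08640, chromosome 5, 2803833 to 2805606), flavonol synthase, uses the dihydroflavonols that DFR also uses. It was at 37.7, 41.1 and 38.2 RPKM in WT and at 29.0, 25.6 and 28.9 RPKM in the mutant. The genotypes did not overlap, and FLS1 was 1.41 times as high in WT as in the mutant, with a log2 fold change of -0.49 (SE 0.06, adjusted p = 2.08e-05, edgeR). Without the fold threshold, 6 members were higher and 1, FLS1, was lower at an adjusted p under 0.02, against 18.0% and 19.4% of tested genes. By library, 6 members lay wholly above WT and 1 wholly below, against 27.0% and 28.2% of tested genes.

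**Figure D1:**
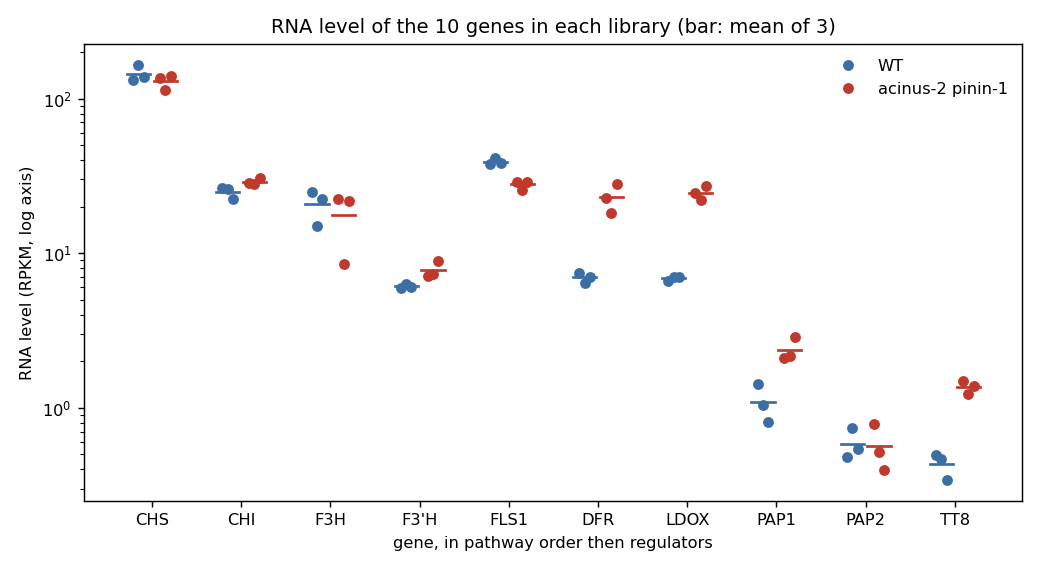
RNA level in RPKM, on a log axis, of the 10 genes in each library, with points for libraries and bars for the mean of 3 libraries of WT (blue) and acinus-2 pinin-1 (red). DFR, LDOX, PAP1 and TT8 lie higher in all mutant libraries, and CHS, F3H and PAP2 overlap between genotypes.

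F3H (AT3G51240), flavanone 3-hydroxylase, makes dihydroflavonols, and its reads cannot be told apart from those of an antisense gene. F3H lies on chromosome 3 from 19025192 to 19026872 (TAIR10.1) on the plus strand, and the long non-coding RNA gene AT3G51238 lies from 19025110 to 19026779 on the minus strand, so that 1588 bases are shared. Whether the library kit kept the strand is not given in the sources used here. By the deposited fraction of shared reads, at least 99.88% of the reads of F3H in each library are marked as shared. The fraction was 100% in WT replicate 4 and mutant replicate 7 and between 99.88% and 99.91% in the other 4 libraries. In WT replicate 4 and mutant replicate 7, F3H was listed with 683 and 326 reads and AT3G51238 with the same numbers, 683 and 326. In the other 4 libraries F3H held 869, 1139, 916 and 1006 reads, and AT3G51238 was listed at 0. These 2 libraries therefore show F3H at 14.9 and 8.49 RPKM, beside 24.9 and 22.5 RPKM in the other WT libraries and 22.5 and 21.8 in the other mutant libraries. As deposited, the log2 fold change of F3H was -0.25 (SE 0.28, adjusted p = 0.50, edgeR), and without mutant replicate 7 it was 0.07.

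When the reads of F3H and AT3G51238 were summed, an alternative chosen after seeing the data, the locus held 46.4, 52.3 and 42.5 CPM in WT. In the mutant it held 41.9, 31.6 and 38.2 CPM. The groups then did not overlap, and the log2 fold change was -0.34 (SE 0.10, 95% interval -0.55 to -0.12, adjusted p = 0.014, edgeR), under the fold threshold. Among all genes, 157 had at least 20 reads in a library with 99% or more of them shared, and 31 of these had 0 reads in another library. At 0 in the same 4 libraries as AT3G51238 were 2 of the 31, 1 of them AT3G51238 itself.

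**Figure D2:**
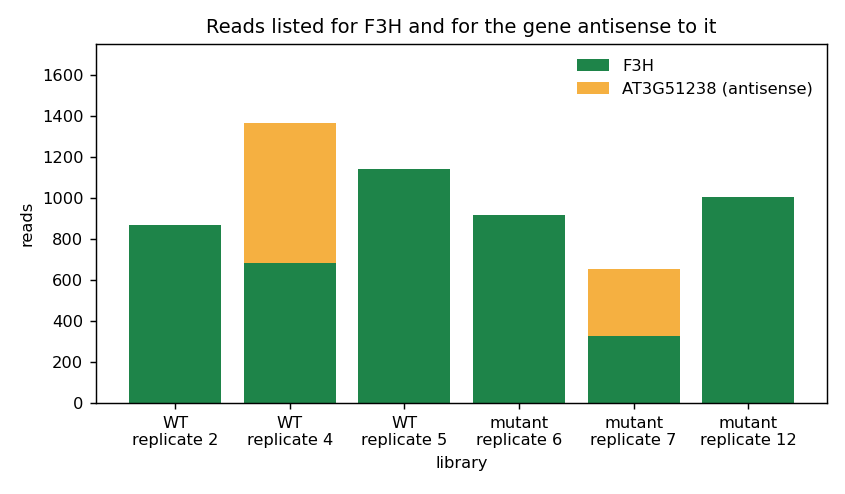
Reads listed for F3H (green) and, stacked on them, for the antisense gene AT3G51238 (orange) in each library, as bars from 0. AT3G51238 holds reads in WT replicate 4 and mutant replicate 7 only, where it equals F3H.

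DFR (AT5G42800, chromosome 5, 17164093 to 17166032), dihydroflavonol 4-reductase, takes the first late step, past the branch to flavonols. It was at 7.49, 6.403 and 7.01 RPKM in the WT libraries and at 22.9, 18.1 and 27.9 RPKM in the mutant libraries, or 6.97 ± 0.545 against 23.0 ± 4.88 (mean ± SD, n = 3 libraries), so the genotypes were far apart relative to their spread. The log2 fold change was 1.71 (SE 0.13, 95% interval 1.44 to 1.99, adjusted p = 5.13e-07, edgeR). LDOX (AT4G22880, chromosome 4, 12004726 to 12006209), leucoanthocyanidin dioxygenase, makes the coloured anthocyanidins. It was at 6.61, 7.02 and 7.01 RPKM in WT and at 24.5, 21.9 and 27.3 RPKM in the mutant. The log2 fold change of LDOX was 1.83 (SE 0.08, 95% interval 1.655 to 1.996, adjusted p = 7.92e-09, edgeR), and all mutant libraries lay above all WT libraries. Without mutant replicate 12 the log2 fold changes were 1.58 for DFR and 1.77 for LDOX, both still called.

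TT8 (AT4G09820, chromosome 4, 6181881 to 6186523), the bHLH factor, was at 0.496, 0.467 and 0.341 RPKM in WT and at 1.49, 1.22 and 1.37 RPKM in the mutant. Counts were low, with 21, 26 and 21 reads in WT and 74, 57 and 77 in the mutant, but the groups did not overlap. The log2 fold change was 1.66 (SE 0.21, adjusted p = 4.19e-05, edgeR). PAP1 (AT1G56650, chromosome 1, 21233555 to 21235292), an R2R3-MYB factor, held 30, 29 and 25 reads in WT and 52, 50 and 80 in the mutant. In RPKM it was at 1.42, 1.05 and 0.814 in WT and at 2.11, 2.15 and 2.86 in the mutant, with a log2 fold change of 1.15 (SE 0.23, adjusted p = 0.0015, edgeR). Without WT replicate 5 the log2 fold change of PAP1 was 0.98, which is under the fold threshold. PAP2 (AT1G66390, chromosome 1, 24763941 to 24765541), its close relative, held 11, 22 and 18 reads in WT and 21, 13 and 12 in the mutant. For PAP2 the log2 fold change was -0.08 with a 95% interval from -0.81 to 0.654 (adjusted p = 0.87, edgeR). The estimate for PAP1 lies outside this interval, but the 95% interval of PAP1, from 0.646 to 1.649, overlaps it. The difference between these genes was not tested. Without mutant replicate 12, TT8 was at a log2 fold change of 1.68 and PAP1 of 1.01, both still called.

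**Figure D3:**
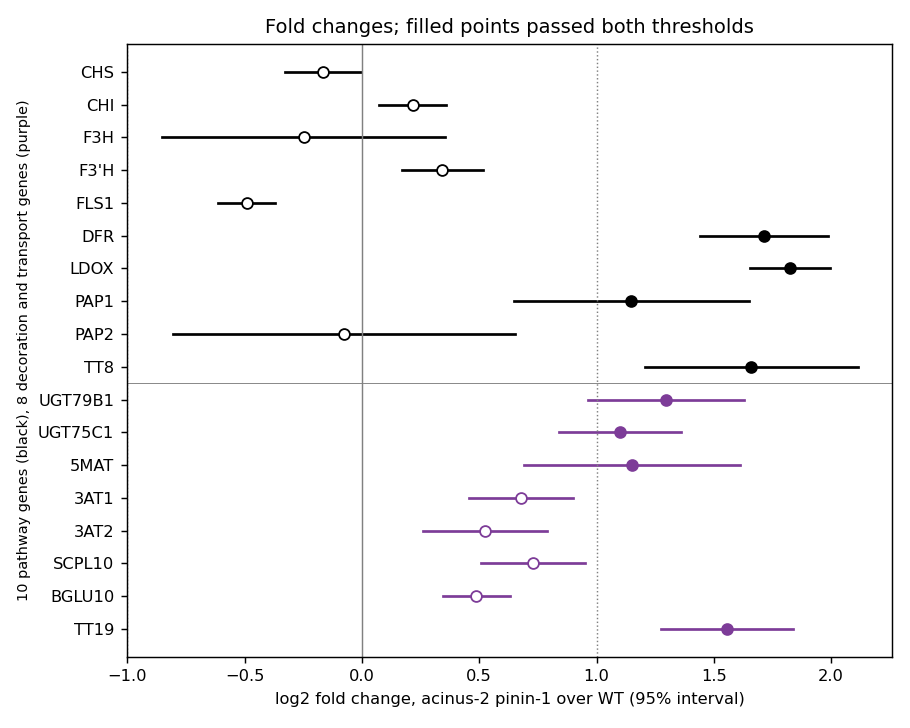
Log2 fold change of acinus-2 pinin-1 over WT with its 95% interval for the 10 pathway genes (black) and the 8 genes of anthocyanin decoration and transport (purple), with filled points for genes past both thresholds. LDOX at 1.83 is the highest of the members, FLS1 at -0.49 the lowest.

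Set beside the early genes in the same library, the late genes took a larger place in every mutant library. The ratio of the RPKM of DFR to that of CHS was 0.057, 0.039 and 0.051 in WT and 0.169, 0.1601 and 0.198 in the mutant. The ratio of LDOX to FLS1 was 0.175, 0.171 and 0.184 in WT and 0.845, 0.855 and 0.943 in the mutant. On the log2 scale the 10 ratios of DFR or LDOX to CHS, CHI, F3H, F3'H or FLS1 differed by between 1.36, for DFR to F3'H, and 2.32, for LDOX to FLS1. None of the 10 overlapped between genotypes, and each gave p = 0.1 in the 2-sided exact permutation test (0.1 after adjustment over the 10), which is the smallest p that 3 against 3 libraries allow. DFR or LDOX is the numerator of each ratio, and both genes were without overlap on their own. The 10 are therefore not independent results and add little to the calls of these genes. With the reads of AT3G51238 added to F3H, the difference for DFR to F3H was 2.04 as before, since 1 library of each genotype is doubled, and the ratios were 0.300, 0.215 and 0.312 in WT and 1.02, 1.07 and 1.28 in the mutant.

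**Figure D4:**
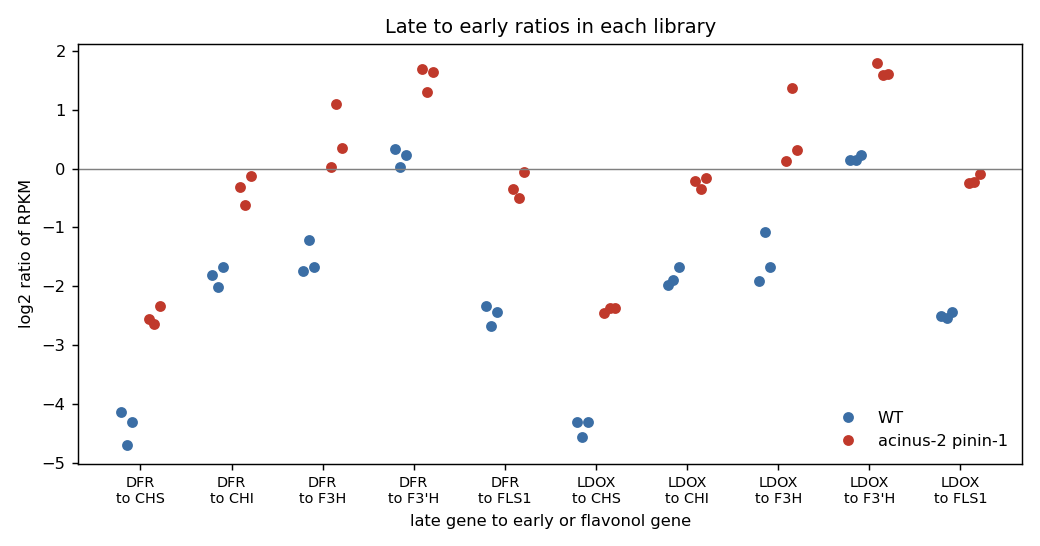
Log2 ratio of the RPKM of a late gene to that of an early or flavonol gene in each library, for WT (blue) and acinus-2 pinin-1 (red). The mutant libraries lie above the WT libraries in each of the 10 ratios.

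In the order of levels, LDOX stood at rank 6 in WT and rank 4 in the mutant, and DFR at rank 5 in both. In WT, by mean RPKM, it ran from CHS at 145.0 over FLS1 at 39.0, CHI at 24.9, F3H at 20.8, DFR at 6.97, LDOX at 6.88, F3'H at 6.10, PAP1 at 1.09 and PAP2 at 0.587 to TT8 at 0.435. Of these neighbours, the library ranges of CHI and F3H, of DFR and LDOX and of PAP2 and TT8 overlapped. In the mutant CHS stood first at 129.7, followed by CHI at 29.0, FLS1 at 27.9, LDOX at 24.6, DFR at 23.0, F3H at 17.6, F3'H at 7.77, PAP1 at 2.37, TT8 at 1.36 and PAP2 at 0.568. There each neighbouring pair from CHI to F3'H overlapped. The overlap of F3H with F3'H rests on mutant replicate 7, where F3H was at 8.49 RPKM as deposited and at 17.0 RPKM with the reads of AT3G51238 added.

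The sequence upstream of 4 members is shown because DFR and TT8 rose while CHS and FLS1 did not, and the complexes that drive the late genes hold a bHLH and a MYB protein. Each line gives the 250 bases before the start of the gene in the RefSeq annotation of TAIR10.1, read from the reference genome 5' to 3' on the gene's strand. Capitals mark matches to the G-box CACGTG, to the E-box CANNTG, which includes it, and to the elements ACCTACC and ACCAACC, searched on both strands. FLS1 holds no match.
CHS (chr5:4488226-4488475, plus strand): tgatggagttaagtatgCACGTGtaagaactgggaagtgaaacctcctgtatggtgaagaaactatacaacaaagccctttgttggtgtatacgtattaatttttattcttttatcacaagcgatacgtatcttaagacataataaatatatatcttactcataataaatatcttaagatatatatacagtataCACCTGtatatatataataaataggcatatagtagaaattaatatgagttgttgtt
FLS1 (chr5:2803583-2803832, plus strand): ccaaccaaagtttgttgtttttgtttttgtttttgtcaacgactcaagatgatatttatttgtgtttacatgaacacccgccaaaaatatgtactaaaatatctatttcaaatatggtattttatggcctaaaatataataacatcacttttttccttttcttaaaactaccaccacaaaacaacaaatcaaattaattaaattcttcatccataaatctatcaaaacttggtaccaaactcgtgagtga
DFR (chr5:17166033-17166282, minus strand): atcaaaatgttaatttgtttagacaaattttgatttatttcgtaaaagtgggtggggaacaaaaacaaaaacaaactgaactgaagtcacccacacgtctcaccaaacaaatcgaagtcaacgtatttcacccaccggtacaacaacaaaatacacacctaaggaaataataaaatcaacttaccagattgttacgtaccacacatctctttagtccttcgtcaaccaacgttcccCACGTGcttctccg
TT8 (chr4:6181631-6181880, plus strand): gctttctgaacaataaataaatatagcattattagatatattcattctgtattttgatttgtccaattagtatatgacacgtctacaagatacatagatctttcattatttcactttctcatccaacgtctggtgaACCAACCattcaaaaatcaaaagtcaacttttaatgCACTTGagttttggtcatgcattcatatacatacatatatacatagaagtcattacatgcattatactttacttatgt

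The G-box of DFR begins 14 bases before the start and that of CHS 233 bases before it. In TT8 the element ACCAACC begins 114 bases and the E-box CACTTG 78 bases before the start. For CHS, FLS1, DFR and TT8 the exons and introns behind the counts span fewer bases than the RefSeq gene. These distances hold for the RefSeq start only, and which end of the gene differs was not examined. Over the 10 members, 4 windows held a G-box (CHS, F3H, DFR and PAP2), where 6.49% of 27443 windows of protein-coding genes did, and 7 held an E-box, where 55.3% did. The element ACCAACC was in 1 window, that of TT8, where 2.69% of all windows held it, and ACCTACC was in 0, where 1.16% did. LDOX and PAP1, which rose, held none of the 4, and the G-box occurred in members that rose and in members that did not. In LDOX 1 spliced read in WT replicate 2 joined its exon 2 to position 12006283 of chromosome 4, beyond the annotated start at 12006209, so its window may not lie before the true start.

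The 28 introns of the members in the deposited tables are numbered by position on the chromosome, and all 28 have the length of a RefSeq intron. They were examined because both mutated proteins act in splicing. Intron reads were few, 174 in WT and 142 in the mutant, and 10 introns in 7 genes had enough reads for the test against the neighbouring exons. None was called at an adjusted p under 0.05 and a fold change above 2 in edgeR's quasi-likelihood test. In that test 4 had an unadjusted p under 0.05, in CHS, CHI, F3H and LDOX, all lower in the mutant. The CHS intron rested on 12 reads in WT and 3 in the mutant, that of F3H on 14 and 3. Of the 10, 8 had a log2 fold change below 0. The shares of all tested introns at such a p or below 0 are not given here, so both counts are a description only. Of the 25523 introns tested, 0.956% were called higher and 0.157% lower. The median log2 fold change of the 10 was -0.68 and that of all tested introns -0.03. DESeq2 was not run on introns.

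The lowest adjusted p was that of the 101-base intron next to the 26-base first exon of LDOX, on the minus strand. It held 10, 5 and 15 reads in WT and 18, 6 and 9 in the mutant, beside 445 and 1465 neighbouring exon reads in all. Its log2 fold change was -1.58 (SE 0.47, adjusted p = 0.085, edgeR), and it passed the threshold when WT replicate 4 or mutant replicate 6 was left out, at adjusted p = 0.049 and 0.030. The RefSeq annotation also holds an LDOX transcript in which this stretch is exon. The 245-base intron of CHI, its last, held 36 reads in WT and 16 in the mutant, with a log2 fold change of -1.36 (SE 0.49, adjusted p = 0.21, edgeR). In DFR, the introns of 79 and 78 bases held 1 and 0 reads in WT and 12 and 9 in the mutant. Spliced reads over the 79-base intron were 62 in WT and 222 in the mutant, and over the 78-base intron 58 and 164. The 79-base intron had a log2 fold change of 1.41 (SE 1.06, adjusted p = 0.68, edgeR) and the 78-base intron was not tested. The 92-base intron of DFR was at -0.64 (SE 1.34, adjusted p = 0.92, edgeR), and its other 2 introns held 0 reads in WT and 0 and 1 in the mutant.

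Spliced reads of the members lay nearly all on annotated junctions, 3691 in WT and 4237 in the mutant. Other entries took 29 and 19 reads, or 0.780% and 0.446%. Most of these were gaps of a few bases inside an exon, not joins between exons, and no read skipped an exon. F3H had no spliced reads in the tables of either genotype, where CHS had 1486 and 1336. This does not show that F3H is unspliced. The introns of F3H held 2 and 14 reads in WT, beside 1843 and 1906.5 neighbouring exon reads. Nearly all reads of F3H are marked as shared, and the part of this in the missing spliced reads was not tested. Per exon, the mean CPM of the mutant relative to WT was between 2.96 and 3.76 over the 6 exons of DFR with 30 or more WT reads, and between 3.47 and 3.71 over 2 exons of LDOX. In CHS it was 0.891 and 0.907 over its 2 exons. The 26-base first exon of LDOX, with fewer than 30 WT reads, did not rise. It held 11 reads in WT and 5 in the mutant, and its junction 4 and 0.

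Beyond the 10 members, 55 further genes of the pathway were grouped by role, of which 46 had enough reads for the test. Of these 4 were called higher and 2 lower, beside 4.29% and 4.88% of all tested genes, and all 4 higher genes belonged to anthocyanin decoration and transport. At an adjusted p under 0.05, a setting chosen for these genes after seeing the data, 5 were higher, 4 of them in that list and the other MYB11. That list held 8 tested genes, all wholly above WT, where 27.0% of all tested genes were. Its median log2 fold change was 0.91, beside 0.0015 for all tested genes. The list does not hold UGT78D2, a glucosyltransferase of flavonols and anthocyanidins that was placed on the flavonol side. UGT78D2 did not rise, with a log2 fold change of -0.09 (adjusted p = 0.30, edgeR). TT19, a glutathione transferase that carries anthocyanins towards the vacuole, was at 5.68, 4.96 and 5.94 RPKM in WT and at 16.2, 13.5 and 19.4 RPKM in the mutant. TT19 thus had a log2 fold change of 1.56 (SE 0.13, adjusted p = 1.44e-06, edgeR). UGT79B1, which adds xylose to anthocyanins, was at 2.70, 2.36 and 2.18 RPKM in WT and at 7.05, 4.64 and 6.01 RPKM in the mutant, with a log2 fold change of 1.30.

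The malonyltransferase 5MAT and the glucosyltransferase UGT75C1 were the other 2, at log2 fold changes of 1.15 and 1.10. Up to 13.7% of the reads of UGT75C1 in a library are marked as shared. Without mutant replicate 12 5MAT was at 0.91, and without WT replicate 4 UGT75C1 was at 0.95, both then under the fold threshold. TT19, UGT79B1 and UGT75C1 were still called without mutant replicate 12, at 1.44, 1.31 and 1.08. The remaining genes, BGLU10 and the acyltransferases 3AT1, 3AT2 and SCPL10, had log2 fold changes between 0.49 and 0.73, each at an adjusted p under 0.02 in edgeR.

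**Figure D5:**
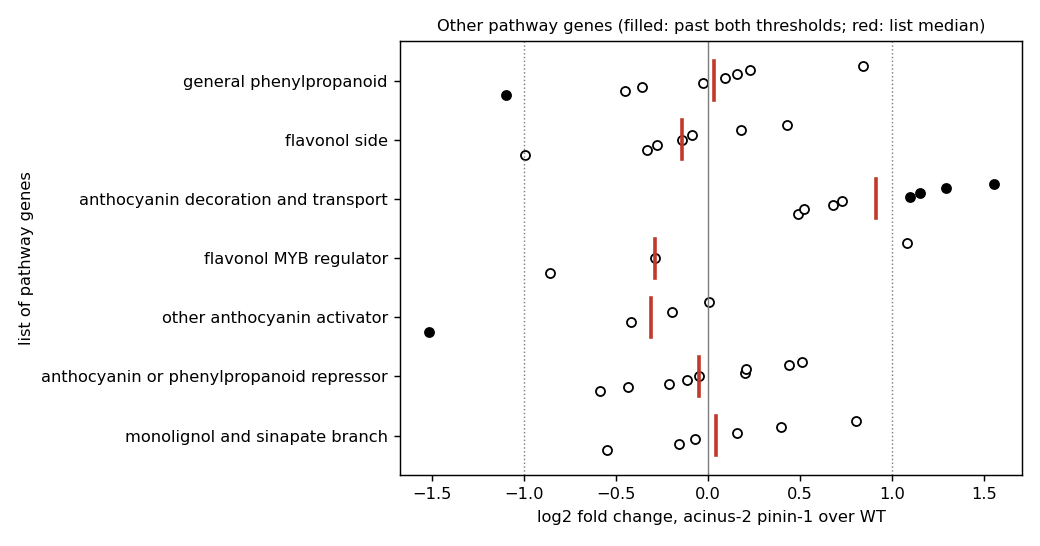
Log2 fold change of acinus-2 pinin-1 over WT of the tested genes in 7 lists of pathway genes outside the 10 members, with filled points for genes past both thresholds and a red line at the median of each list. The 4 filled points above 1 are all in the decoration and transport list.

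Upstream of CHS, the general phenylpropanoid genes had mixed values, with a median log2 fold change of 0.03 over 8 genes. PAL4, a phenylalanine ammonia-lyase, was called lower. It was at 7.45, 8.18 and 6.83 RPKM in WT and at 3.32, 4.17 and 3.06 RPKM in the mutant, with a log2 fold change of -1.10 (SE 0.11, adjusted p = 6.62e-06, edgeR), and at -0.98 without mutant replicate 12. Its relative PAL3 had a log2 fold change of 0.84, and PAL1, the family member with the highest level, of -0.45.

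On the flavonol side 7 of 8 genes were tested and none was called, with a median log2 fold change of -0.14. The 2 with the largest level, the methyltransferase OMT1 and the rhamnose synthase RHM1, had log2 fold changes of 0.43 and -0.28. FLS3, a homologue of FLS1 named here after its values were seen, was at 6.404, 6.94 and 8.11 RPKM in WT and at 3.38, 4.17 and 3.39 RPKM in the mutant, a log2 fold change of -0.99 just short of the threshold. Of the MYB factors that drive the flavonol genes none was called. MYB111 and MYB12, the 2 with the largest level, were at log2 fold changes of -0.86 (SE 0.16, adjusted p = 0.00079, edgeR) and -0.29. MYB11, the lowest of the list and named after its values were seen, lay the other way. It held 4, 6 and 9 reads in WT and 14, 10 and 15 in the mutant, without overlap in CPM, with a log2 fold change of 1.08 (SE 0.37, adjusted p = 0.029, edgeR).

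Among the other activators of anthocyanin genes, GL3, a bHLH factor that can take the place of TT8 in the complexes, fell. It was at 0.920, 1.08 and 0.988 RPKM in WT and at 0.461, 0.224 and 0.356 RPKM in the mutant, with a log2 fold change of -1.52 (SE 0.25, adjusted p = 0.00033, edgeR). Without mutant replicate 12 it was at -1.50, still called. TT8 and GL3 thus moved in opposite directions. EGL3 was at a log2 fold change of -0.42 and TTG1, the WD40 subunit, at 0.01, and both MYB113 and MYB114 had too few reads for the test. Of 9 repressors none was called, and LBD37 and LBD38, those with the largest level, were at log2 fold changes of 0.21 and 0.51. In the monolignol and sinapate branch, which also draws on p-coumaroyl-CoA, none of 6 genes was called, and CCOAOMT1 and REF1 were at 0.16 and 0.40.

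The genes whose levels followed those of DFR most closely over the 6 libraries, outside these lists, were OXP1, KCS19 and BCA3, with Pearson r of log2 CPM between 0.998 and 0.999. Such values were common, since 1134 of 20897 genes had an r above 0.95 with DFR. For CHS they were PHF1, COBL7 and AT1G80020, with r between 0.985 and 0.9901, and 28 genes passed 0.95. All points share their library, and the values are a description.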

How the data were processed

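RNA of 6 seedling libraries was grouped by the genotype in the labels. The authors mapped reads to TAIR10 and ran RACKJ with its defaults to produce the tables. The version and gene model are not given in the sources used here. The deposited tables hold expected counts for genes, exons and introns, in which shared reads are split, a count of spliced reads, RPKM per exon length and mapped reads, and the fraction of shared reads. The authors' own filters on duplicates and mapping quality were not applied here, and whether such reads are in the counts was not tested. Expected counts were rounded and tested with edgeR 4.0.16 in R 4.3.3 (filterByExpr, TMM, quasi-likelihood, Benjamini-Hochberg over 20962 genes or 25523 introns). Tested introns had at least 10 intron reads over the 6 libraries and 10 neighbouring exon reads in each. DESeq2 1.42.0 and limma 3.58.1 served as alternatives. Standard deviations and ratios used Python with scipy, whose permutation test was exact. On simulated counts, with 4-fold changes set in well covered genes and introns and a fixed dispersion for introns, 200 of 200 genes were recovered with 3 false calls among 20962, and 200 of 200 introns with 7 among 25523. Overlap between genotypes was judged on CPM after TMM.

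The named genes are the 10 members, the called genes of each further list or, where none was called, the 2 with the largest mean RPKM, and the 3 genes most like DFR and CHS. FLS3, UGT78D2, MYB11, PAL1, PAL3, EGL3, TTG1 and the decoration genes under the threshold were named after their values were seen. Members and lists were chosen with earlier results of these data known. Replicate pairs differed beyond counting error, at chi-square values of 3.63 to 10.4 for each degree of freedom.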

Additional observations from a re-analysis of the deposited data

How the results depend on the processing

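The 4 members called higher were also called under other size factors, with total reads only, without a filter on low counts, with DESeq2, with limma on log2(RPKM + 0.1) and at an adjusted p under 0.05. With limma on log2(RPKM + 1), and in a test against a fold change of 2, 2 members, DFR and LDOX, were called. Leaving out each library gave between 3 and 4. Without a threshold on the fold change 1 member was lower. Of the other pathway genes, 4 were higher and 2 lower. Leaving out each library gave 3 to 4 higher and 1 to 4 lower, with 4 lower without WT replicate 2 or mutant replicate 7 and 1 without mutant replicate 12. Without a fold threshold 16 were higher, 8 of them in decoration and transport, and 10 lower. With limma on log2(RPKM + 1), an alternative chosen for these genes after seeing the data, 2 were higher, both in that list, and 0 lower. Against a fold change of 2, likewise chosen later, 1 was higher, in that list, and 0 lower. The called member introns ranged from 0 to 1 on leaving out each library. The log2 fold change changed sign on leaving out a library for F3H (-0.48 to 0.066), PAP2 (-0.40 to 0.17), SPL9 (-0.15 to 0.10), PAL2 (-0.087 to 0.024), AHA10 (-0.11 to 0.24) and TTG1 (-0.034 to 0.047), none of them called. On leaving out each library the log2 differences in the 10 ratios lay between 1.27 (DFR to F3'H) and 2.41 (LDOX to F3H). With all 6 libraries, CPM without length or F3H summed with AT3G51238 cannot move the log2 differences by construction. The first cannot because length is constant per gene, the second because it changes 1 library of each genotype by the same factor. With a library left out, the sum can move the ratios to F3H, so the 2.41 holds for F3H as deposited. No paired analysis was possible because the genotypes share no replicate numbers. At 11 to 30 reads per WT library, PAP1, PAP2 and TT8 have the widest intervals of the members beside F3H.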

Other observations

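Genes of proanthocyanidin synthesis, which marks the seed coat, had few reads in these seedlings. Of 7 such genes 6 had too few reads for the test, among them BAN, the anthocyanidin reductase that competes for the product of LDOX, at a mean of 0.028 RPKM in WT and 0.0089 in the mutant. AHA10, a proton pump of the seed coat vacuole, was the gene tested, at a log2 fold change of 0.04 (adjusted p = 0.91, edgeR). TT2, the MYB factor of the seed coat, was at a mean of 0.020 RPKM in WT and 0.037 in the mutant.

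Of the sinapate branch, FAH1, ferulate 5-hydroxylase, and SNG1, sinapoylglucose:malate sinapoyltransferase, lay apart between genotypes in opposite directions. This was not particular to them. Of the 6 genes in the monolignol and sinapate list, 3 lay wholly above WT and 3 wholly below, against 27.0% and 28.2% of tested genes. FAH1 was at 29.7, 37.3 and 32.7 RPKM in WT and at 59.0, 56.3 and 59.95 RPKM in the mutant, a log2 fold change of 0.81. SNG1 was at 37.0, 40.5 and 35.5 RPKM in WT and at 24.8, 25.7 and 26.97 RPKM in the mutant, a log2 fold change of -0.55. Both were under the fold threshold and were named after their values were seen.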
